A study of Mus musculus with 42 samples.

Results

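The Wnt ligands, their receptors and their inhibitors were taken from the count table by gene symbol. The set held every symbol made of Wnt, Fzd, Sfrp or Dkk and a number, with Frzb, Lrp5, Lrp6, Axin1, Axin2, Ctnnb1, Tcf7, Tcf7l1, Tcf7l2 and Lef1 added. This gave 47 of 40701 symbols, made up of 19 ligands, 12 receptors, 9 secreted inhibitors and 7 cytoplasmic or nuclear components. The study measured RNA from the renal cortex of mice aged 12 weeks in 42 libraries. Each library came from a kidney with unilateral ureteral obstruction (UUO, in which 1 ureter is blocked) at day 5 or day 10, or from the contralateral kidney, which the labels call the healthy control. From each state there were 4 male and 3 female libraries of each of 2 fractions. The PT fraction is proximal tubule RNA on ribosomes pulled down with anti-GFP antibodies on beads (TRAP), and the other is labelled total kidney (Total here). The strain, the genotype and promoter that place the GFP tag, the day on which contralateral kidneys were taken and whether Total is the RNA left unbound by the beads are not given in the sources used here. Neither is it stated that libraries with different numbers came from different animals, so p-values measure the spread between these libraries, which may be technical.

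Wnt proteins are secreted lipid-modified ligands that bind Frizzled (Fzd) receptors, alone or with the co-receptors Lrp5 and Lrp6. In the canonical branch, binding stops the Axin complex from marking β-catenin (Ctnnb1) for destruction, and β-catenin then acts with the DNA-binding factors Tcf7, Tcf7l1, Tcf7l2 and Lef1. Sfrp proteins and Frzb bind ligands outside the cell, and Dkk1 and Dkk2 block the co-receptors. In the kidney the pathway is known for its part in tubule formation and for its return in injury and fibrosis.

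Library totals ran from 9.31 to 43.6 M counts with a median of 18.5 M. Levels are in CPM, the counts of a gene scaled to the library total and the TMM factors of edgeR, and a change is a log2 fold change ± SE from edgeR's quasi-likelihood test on 7 libraries a side, with the sexes at equal weight. Where 3 ranges follow each other they are for contralateral, day 5 and day 10 kidneys, and pairs of changes are for day 5 and day 10. A gene is said to have risen, fallen or been called where the Benjamini-Hochberg adjusted p over all genes tested was under 0.05 and the change at least 2-fold. The labelled fraction was checked with marker genes. All 12 fibroblast and pericyte markers were lower in PT than in Total in contralateral kidneys, with a median log2 difference of -3.88, while the 10 proximal tubule markers had a median of 0.39 and 1 of them was lower. Most markers of other cells were lower in PT than in Total. With obstruction, most tested fibroblast, macrophage and lymphocyte markers rose, and loop and collecting duct markers more often fell. In Total, 1 of 8 podocyte markers fell on each day and 0 rose. The summed level of the fibroblast and pericyte markers in PT was 7.10 to 14.7 CPM in contralateral kidneys, 42.9 to 84.9 CPM at day 5 and 72.6 to 121 CPM at day 10. The Total sums were 128 to 226, 1099 to 1389 and 1169 to 2482 CPM. The 11 macrophage and monocyte markers summed to 9.70 to 15.5, 102 to 183 and 139 to 352 CPM in PT. In Total they summed to 59.1 to 149, 593 to 1312 and 1121 to 2190 CPM. Of these 11, all were lower in PT in contralateral kidneys, and 10 were at day 5 and at day 10. Cd14 had the most counts of them in obstructed PT. Its counts over the 3 states were 279, 10949 and 19970 in PT and 560, 10106 and 11758 in Total. The 10 proximal tubule markers summed to medians of 14727, 4536 and 5955 CPM in PT and of 11240, 2350 and 1793 CPM in Total. No fibroblast or macrophage marker was at 0 in any fraction and state. The part of these shifts in the results below was not tested, and in bulk samples fewer cells of a type and less RNA per cell cannot be told apart.

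Of the 47 genes, 28 passed the filter on low counts in PT and 36 in Total, and Wnt3a had no count in any library. In PT, 13 of the 28 were called at day 5, of which 10 rose and 3 fell, against 30.6% of all genes tested (18.2% higher and 12.4% lower). At day 10, 13 were called in PT, with 12 higher and 1 lower, against 31.7% of all genes (19.7% higher and 12% lower). In Total, 13 of the 36 were called at day 5, with 12 higher and 1 lower, against 32.5% of all genes (19.2% and 13.3%). At day 10, 16 were called in Total, with 15 higher and 1 lower, against 34.6% of all genes (20.9% and 13.8%). The median change of the tested genes of the set was 0.61 in PT at day 5 and 0.68 at day 10, beside 0.05 for all genes tested on each day. In Total the median was 0.30 at day 5 and 0.75 at day 10, beside 0.04 and 0.06. Some scarce genes passed the filter only through the obstructed libraries, so the way they entered favours a rise. In PT these include Sfrp5, Wnt10a, Wnt4 and Wnt7b, with 1, 1, 9 and 9 contralateral counts, and Tcf7 and Fzd2, with 20 each. In Total they include Wnt10a, Wnt7a and Sfrp5, with 9, 10 and 18, and Dkk1, with 3 in females and 4 in males. The counts and medians above include such genes, and all genes tested passed the same filter. Obstructed and contralateral libraries did not overlap for 5 and 9 genes of the set in PT at day 5 and day 10, against 25.5% and 22.3% of all genes, and for 9 and 10 in Total, against 28.6% and 29.7%. The day 5 and day 10 comparisons of a fraction share the same contralateral libraries and are given side by side for that reason. With library size as the only scaling, the median change of all genes in PT at day 5 was 0.52, and 14 of 16 called genes of the set were higher. Under that scaling the share of higher genes among all called went from 59.6% to 83.1% in PT and from 59.1% to 80.4% in Total at day 5, and from 62.2% to 82.9% and from 60.3% to 76.0% at day 10.

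**Figure D1:**
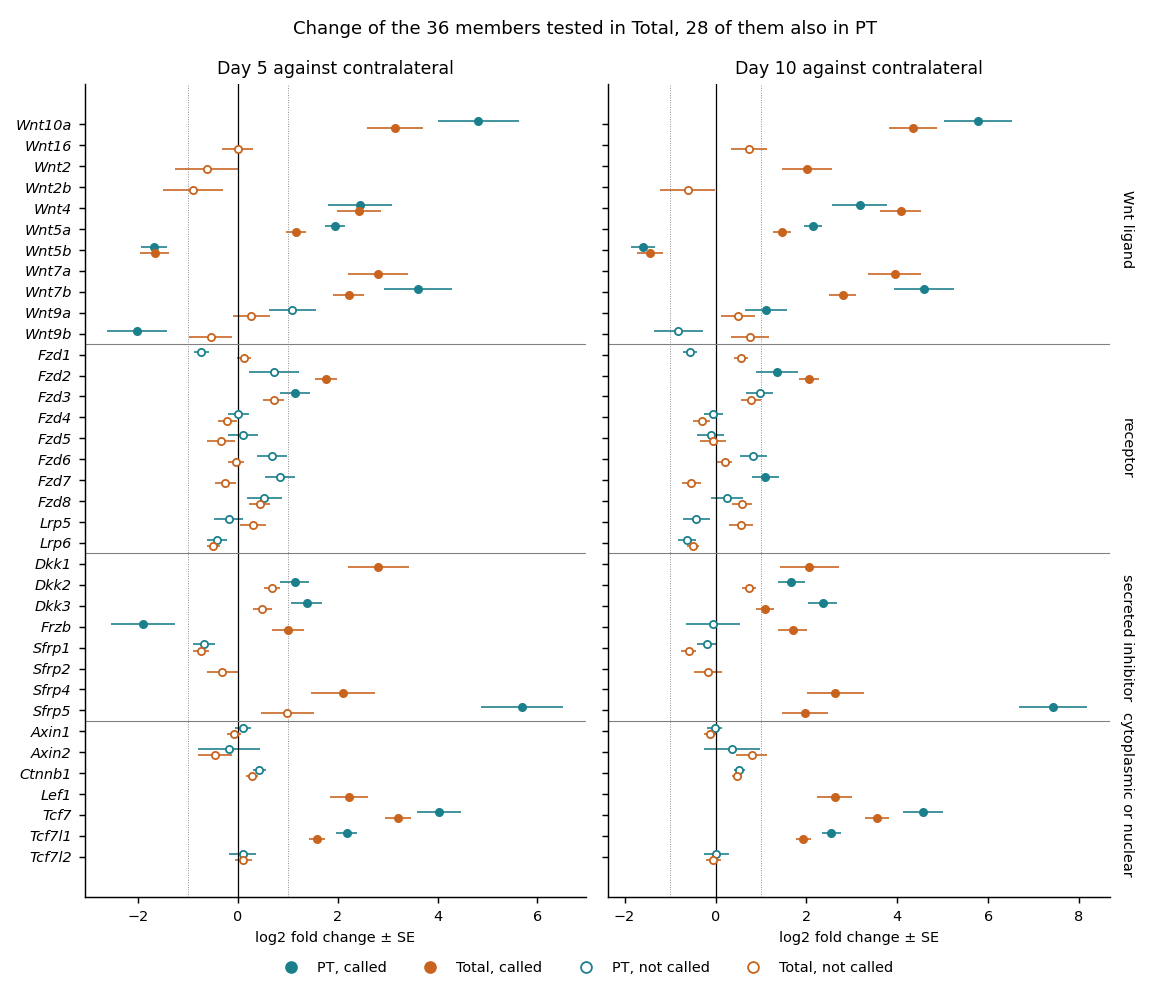
Log2 fold change against contralateral kidneys (x axis) with its SE for each gene of the set tested (y axis), in PT and Total at day 5 and day 10; filled symbols are called and dotted lines mark a 2-fold change. Tcf7, Wnt10a, Wnt4 and Wnt7b lie far to the right in both fractions, Wnt5b lies to the left in both, and Sfrp5 reaches its largest values in PT.

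Among the ligands, Wnt4, Wnt7b, Wnt10a and Wnt5a rose on both days in both fractions and Wnt5b fell in all 4 comparisons. In PT, 7 ligands were tested, with 4 higher and 2 lower at day 5 and 5 higher and 1 lower at day 10. In Total, 11 were tested, with 5 higher and 1 lower at day 5 and 6 higher and 1 lower at day 10. Wnt4, a ligand needed for the mesenchyme to form nephrons, was measured in PT at 0 to 0.166 CPM (median 0.0632) in contralateral kidneys, 0.141 to 0.665 CPM (median 0.244) at day 5 and 0.274 to 0.996 CPM (median 0.478) at day 10. In Total its level was 0 to 1.99 CPM (median 0.476), 1.97 to 3.68 CPM (median 2.95) at day 5 and 3.21 to 21.5 CPM (median 6.76) at day 10. Day 10 lay above contralateral kidneys with no overlap in both fractions, while at day 5 the lowest obstructed library lay below the highest contralateral one. Wnt4 rose by 2.46 ± 0.64 at day 5 and 3.17 ± 0.60 at day 10 in PT, and by 2.43 ± 0.44 and 4.07 ± 0.45 in Total.

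Wnt7b, a ligand of the ureteric tree that acts in medulla formation, was at 0 to 0.418 CPM (median 0) in contralateral PT, 0.375 to 2.44 CPM (median 0.767) at day 5 and 0.527 to 5.11 CPM (median 2.14) at day 10. Total libraries gave 0.183 to 1.80 CPM (median 0.478), 1.47 to 5.03 CPM (median 2.58) and 2.32 to 8.21 CPM (median 4.24). Day 10 did not overlap with contralateral kidneys in either fraction, and day 5 did in both. The changes of Wnt7b were 3.61 ± 0.68 and 4.58 ± 0.66 in PT and 2.22 ± 0.30 and 2.80 ± 0.30 in Total at day 5 and day 10. Collecting duct markers summed to 56.4 to 100.2 CPM in contralateral PT and 8.15 to 23.6 CPM in PT at day 10. Aqp3 had the most counts of them, 6655 in contralateral PT and 1071 at day 10, while Foxi1 had 75 and 210. Of 8 collecting duct markers tested in PT at day 10, 5 fell and 1 rose. Their part in the change of Wnt7b was not tested.

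Wnt10a, a canonical ligand, had 1 count in the 7 contralateral PT libraries, 40 counts at day 5 and 93 at day 10. Its PT levels were 0 to 0.05 CPM, 0.141 to 0.549 CPM and 0.110 to 1.51 CPM, with medians of 0, 0.316 and 0.586 CPM. No obstructed PT library overlapped with a contralateral one. The ratio to contralateral was 35.7 (95% counting interval 6.05 to 1440) at day 5 and 70.7 (12.4 to 2820) at day 10, and the interval covers counting error only. In Total, Wnt10a went from 0 to 0.221 CPM (median 0.0597) to 0.295 to 0.988 CPM (median 0.509) and 0.581 to 3.88 CPM (median 0.832), again without overlap. It rose there by 3.15 ± 0.57 at day 5 and 4.34 ± 0.54 at day 10.

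Wnt5a, the best known ligand of the β-catenin-independent branch, was at 1.62 to 4.43 CPM (median 2.36) in contralateral PT, 7.83 to 13.4 CPM (median 8.94) at day 5 and 8.81 to 16.2 CPM (median 10.9) at day 10. Total values were 3.98 to 10.2 CPM (median 7.49), 13.4 to 23.4 CPM (median 16.9) and 12.5 to 28.9 CPM (median 21.3). Every obstructed library lay above every contralateral library of its fraction. Wnt5a rose by 1.95 ± 0.20 and 2.15 ± 0.20 in PT and by 1.16 ± 0.20 and 1.46 ± 0.20 in Total at day 5 and day 10. In PT at day 5 the adjusted p of edgeR's quasi-likelihood test with Benjamini-Hochberg adjustment was 6.65e-08.

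Wnt5b, its close paralog, moved the other way. Its PT level was 2.89 to 14.4 CPM (median 4.15) in contralateral kidneys, 0.844 to 2.38 CPM (median 1.92) at day 5 and 1.35 to 2.46 CPM (median 1.86) at day 10. The range in Total was 2.26 to 8.40 CPM (median 3.38), 0.828 to 1.97 CPM (median 1.32) and 0.903 to 2.70 CPM (median 1.22). Obstructed and contralateral libraries did not overlap in PT on either day nor in Total at day 5, and overlapped in Total at day 10. Wnt5b had log2 changes of -1.68 ± 0.27 and -1.6 ± 0.26 in PT and -1.66 ± 0.29 and -1.44 ± 0.29 in Total. Wnt5a and Wnt5b therefore had called changes of opposite sign in each fraction on each day.

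**Figure D2:**
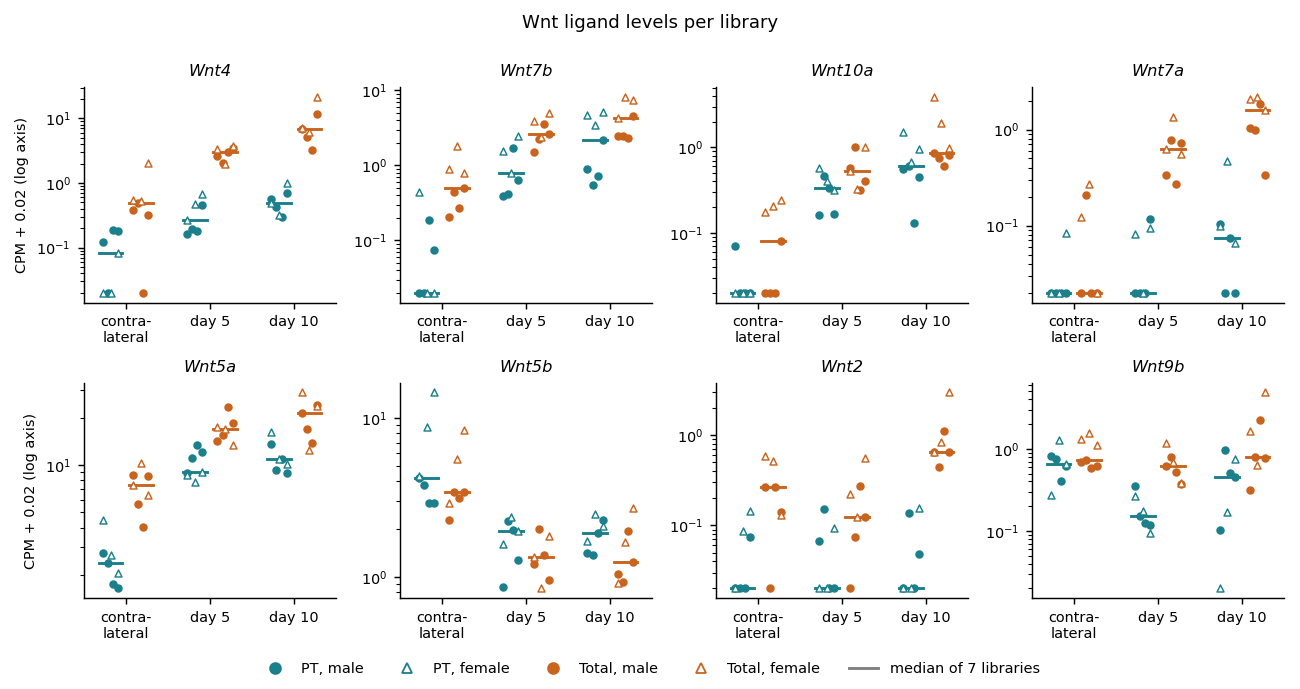
CPM + 0.02 on a log axis (y axis) of ligands named in the text, per library, for PT and Total in contralateral, day 5 and day 10 kidneys (x axis); filled circles are male, open triangles female and the bar is the median of 7. Wnt5a sits higher and Wnt5b lower in obstructed kidneys in both fractions, and Wnt7a is at or near 0 in PT.

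The other ligands were scarce. Wnt7a, a ligand known for dorsal limb patterning, was not tested in PT, where it had at most 0.453 CPM in any library. For Total the values were 0 to 0.248 CPM (median 0) in contralateral kidneys, 0.253 to 1.35 CPM (median 0.611) at day 5 and 0.315 to 2.17 CPM (median 1.59) at day 10, without overlap. Its rise in Total was 2.81 ± 0.60 at day 5 and 3.94 ± 0.58 at day 10. Wnt2, a canonical ligand of mesenchyme, was at 0 to 0.568 CPM (median 0.244) in contralateral Total, 0 to 0.539 CPM (median 0.105) at day 5 and 0.423 to 2.96 CPM (median 0.637) at day 10. Its groups overlapped, and it rose at day 10 by 2.01 ± 0.55, while its day 5 value of -0.62 was not called. Wnt9b, the ureteric signal that starts nephron formation, fell in PT at day 5 with a change of -2.01 ± 0.60. Its PT levels were 0.251 to 1.25 CPM (median 0.632), 0.0739 to 0.328 CPM (median 0.132) and 0 to 0.937 CPM (median 0.428), which overlap, and the day 10 value of -0.81 ± 0.54 was not called. Wnt9a, a canonical ligand, was at 0.190 to 1.34 CPM (median 0.350), 0.483 to 2.47 CPM (median 1.03) and 0.570 to 2.26 CPM (median 1.05) in PT, with overlap between states. It was called in PT at day 10 (1.11 ± 0.46, adjusted p = 0.0466 in the quasi-likelihood test of edgeR with Benjamini-Hochberg adjustment), and the call was lost on leaving out any of 12 of the 21 PT libraries (log2 change 0.87 to 1.45). At day 5 the change was 1.10 ± 0.46 with an adjusted p of 0.0516 in the same test by edgeR. Wnt10b had 0, 2 and 26 counts in PT and 0, 2 and 17 counts in Total over the 7 libraries of contralateral, day 5 and day 10 kidneys, and was not tested.

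Among the receptors, Fzd2 was called at day 10 in both fractions and most others stayed within 2-fold of contralateral kidneys. Of 10 receptors tested in each fraction, PT had 1 higher at day 5 and 2 at day 10, Total had 1 higher on each day, and none fell. Fzd2, a receptor for Wnt5a and other ligands, was at 0.0555 to 0.369 CPM (median 0.162) in contralateral PT, 0.148 to 0.869 CPM (median 0.307) at day 5 and 0.201 to 0.770 CPM (median 0.493) at day 10. The corresponding Total levels were 0.854 to 1.77 CPM (median 1.24), 2.61 to 6.22 CPM (median 4.71) and 3.25 to 6.32 CPM (median 5.72). The states overlapped in PT and did not in Total. Fzd2 rose in Total by 1.77 ± 0.22 and 2.05 ± 0.22, and in PT by 1.35 ± 0.47 at day 10. Without the female day 10 PT library 3 the PT value was 1.01 and the adjusted p 0.1 in the quasi-likelihood test of edgeR with Benjamini-Hochberg adjustment.

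Fzd7, a Frizzled of stem and progenitor cells, was at 1.06 to 3.32 CPM (median 1.46) in contralateral PT, 1.48 to 6.48 CPM (median 3.84) at day 5 and 2.65 to 6.84 CPM (median 4.25) at day 10. Its Total level was 4.42 to 12.3 CPM (median 8.14), 4.22 to 9.53 CPM (median 7.23) and 3.73 to 7.68 CPM (median 5.04). The medians thus went up in PT and down in Total, with overlap between states in both. Fzd7 rose in PT at day 10 by 1.09 ± 0.30 and had -0.53 ± 0.21 in Total, which was not called. Its PT value was 0.92 without the female contralateral PT library 2 or without the female day 10 PT library 2. Fzd3, a receptor of axon guidance and planar polarity, was at 0.918 to 2.01 CPM (median 1.19), 1.11 to 5.00 CPM (median 3.21) and 1.08 to 4.70 CPM (median 2.57) in PT. It rose in PT at day 5 by 1.14 ± 0.30, and its values of 0.97 ± 0.30 in PT at day 10, 0.72 ± 0.22 in Total at day 5 and 0.79 ± 0.22 in Total at day 10 were under 2-fold. Without the female day 5 PT library 1 the day 5 value was 0.97.

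The remaining receptors were not called against contralateral kidneys. Fzd1, a receptor linked to canonical signalling, was at 22.0 to 38.6 CPM (median 30.5) in contralateral PT, 15.3 to 22.2 CPM (median 17.8) at day 5 and 14.7 to 28.9 CPM (median 20.9) at day 10. The Total libraries held it at 22.1 to 38.5 CPM (median 25.8), 22.9 to 39.2 CPM (median 30.7) and 31.1 to 64.1 CPM (median 39.2). Its changes were -0.73 ± 0.15 and -0.55 ± 0.15 in PT and 0.13 and 0.56 ± 0.15 in Total, all under 2-fold. Lrp6, a co-receptor of the canonical branch, had changes from -0.63 to -0.41 over the 4 comparisons. Lrp5, its partner, had changes from -0.42 to 0.56. Under library size as the only scaling, Lrp6 in PT at day 5 went from -0.41 to 0.05. Fzd6, a planar polarity receptor, had 0.69 and 0.83 in PT and -0.04 and 0.20 in Total.

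**Figure D3:**
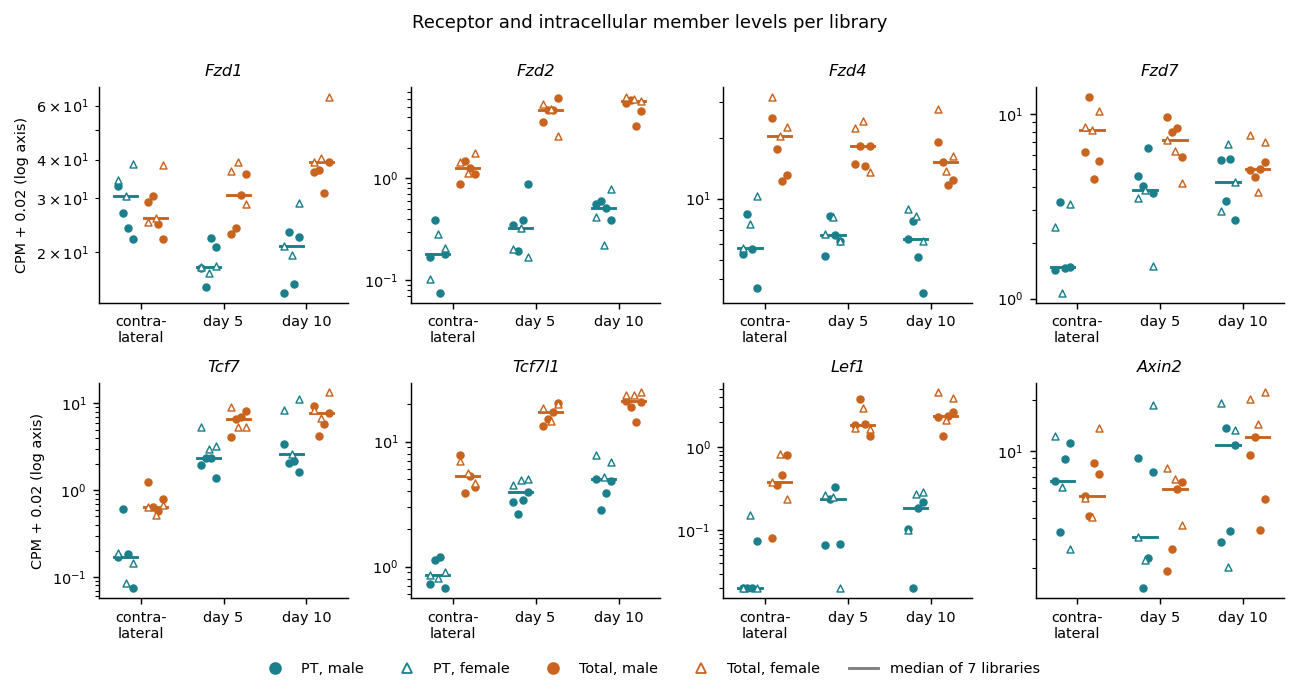
CPM + 0.02 on a log axis (y axis) of receptors, nuclear factors and Axin2, per library, for PT and Total in contralateral, day 5 and day 10 kidneys (x axis); filled circles are male, open triangles female and the bar is the median of 7. Tcf7 and Tcf7l1 in obstructed kidneys lie above contralateral ones in both fractions, and Fzd7 goes up in PT and not in Total.

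Among the secreted inhibitors, Sfrp5 had the largest change in PT, and Dkk2 and Dkk3 rose with it on both days. Of 5 inhibitors tested in PT, 3 rose and 1 fell at day 5 and 3 rose at day 10. Of 8 tested in Total, 3 rose at day 5 and 5 at day 10, and none fell. Sfrp5, which binds Wnt5a and other ligands, had 1 count in the 7 contralateral PT libraries, 73 at day 5 and 299 at day 10. Its PT levels were 0 to 0.0555 CPM (median 0), 0.0469 to 1.48 CPM (median 0.531) and 0.877 to 4.54 CPM (median 1.72). All day 10 libraries lay far above the contralateral ones, while the lowest day 5 library lay just under the highest contralateral library. The ratio to contralateral was 65.1 (counting interval 11.3 to 2610) at day 5 and 227 (40.5 to 9010) at day 10. In Total, Sfrp5 was at 0 to 0.332 CPM (median 0.179), 0.119 to 0.539 CPM (median 0.337) and 0.155 to 2.17 CPM (median 0.637), with overlap. The Total value was 0.99 ± 0.53 at day 5, not called, and the rise at day 10 was 1.97 ± 0.51.

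Dkk2, a co-receptor ligand that blocks or activates by context, was at 1.09 to 5.00 CPM (median 2.81) in contralateral PT, 1.92 to 13.6 CPM (median 6.94) at day 5 and 4.80 to 18.7 CPM (median 7.34) at day 10. Total libraries gave 14.4 to 24.2 CPM (median 20.3), 21.3 to 43.0 CPM (median 33.4) and 25.7 to 46.5 CPM (median 31.8). The states overlapped in PT on both days and in Total at day 5, and not in Total at day 10. Dkk2 rose by 1.14 ± 0.29 and 1.67 ± 0.29 in PT, and its Total values of 0.69 ± 0.16 and 0.74 ± 0.16 were under 2-fold. With the Lars2 level added as a covariate, a choice made after seeing the data, the PT day 5 value was 0.98. Dkk3, a divergent member of the family known from tubular stress in renal fibrosis, was at 0.324 to 1.51 CPM (median 0.888), 1.17 to 3.25 CPM (median 2.33) and 2.05 to 8.69 CPM (median 3.82) in PT. Total values were 13.8 to 33.5 CPM (median 26.7), 27.6 to 41.9 CPM (median 37.1) and 30.5 to 79.6 CPM (median 47.5). In PT day 10 did not overlap with contralateral kidneys, while the Total states overlapped. Dkk3 rose in PT by 1.38 ± 0.32 and 2.36 ± 0.32, and in Total by 1.09 ± 0.19 at day 10. The Total day 10 value was 0.99 without any of the male day 10 library 1, the female day 10 library 1 or the female day 10 library 3. At day 5 in Total Dkk3 had 0.49 ± 0.19, which was not called.

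Dkk1, the prototype co-receptor blocker, was not tested in PT and was listed at 0 in all 7 PT libraries of day 5. The range in Total was 0 to 0.124 CPM (median 0.0517), 0.278 to 0.713 CPM (median 0.464) and 0.0490 to 0.512 CPM (median 0.271). Day 5 did not overlap with contralateral kidneys and day 10 did. Dkk1 rose in Total by 2.81 ± 0.61 and 2.06 ± 0.65, and the day 10 value was 1.72 without the female day 10 Total library 3 (adjusted p = 0.0556, edgeR's quasi-likelihood test with Benjamini-Hochberg adjustment). Sfrp4, a ligand-binding inhibitor, was at 0 to 0.476 CPM (median 0.244), 0.357 to 2.06 CPM (median 0.777) and 0.242 to 3.53 CPM (median 1.01) in Total. Its states overlapped, and it rose there by 2.11 ± 0.64 and 2.63 ± 0.63. In PT it had 0, 5 and 21 counts over the 7 libraries of the 3 states. Sfrp1, a ligand-binding inhibitor, was at 120 to 324 CPM (median 142), 73.9 to 160 CPM (median 102) and 70.7 to 188 CPM (median 112) in Total. Its Total changes were -0.73 ± 0.16 and -0.59 ± 0.16, under 2-fold on both days, with overlap. Sfrp2, a further member of the family, had -0.31 and -0.17 in Total and was not called.

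Frzb, a ligand-binding inhibitor, split by sex in contralateral kidneys of both fractions. In contralateral PT its level was 22.6, 32.1, 50.3 and 11.9 CPM in the males and 0.418, 0.330 and 6.0 CPM in the females. In contralateral Total it was 21, 25.9, 53.2 and 12.9 CPM in the males and 1.6, 2.67 and 7.30 CPM in the females. All males were above all females in both fractions. At day 5 PT held 3.57 to 6.27 CPM in males and 0.975 to 1.26 CPM in females, and Total held 17.5 to 22.5 CPM in males and 15 to 26.4 CPM in females. The sexes were thus apart in PT and overlapped in Total at day 5. Frzb rose in Total by 1.01 ± 0.31 and 1.70 ± 0.32 and fell in PT at day 5 with -1.89 ± 0.64, while the PT day 10 value was -0.06 ± 0.59. In PT all day 5 males lay below all contralateral males. The contralateral females at 0.418 and 0.330 CPM lay below the day 5 females, and the one at 6.0 CPM lay above. The PT call with the sexes at equal weight rests on that last library, female contralateral PT library 3. Without it the value was -0.60, with an adjusted p of 0.487 by edgeR's quasi-likelihood test and Benjamini-Hochberg adjustment. With library size as the only scaling the PT day 5 value was -1.41 and not called. The Total day 5 call was lost on leaving out any of 8 of 21 Total libraries (log2 change 0.80 to 1.39).

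**Figure D4:**
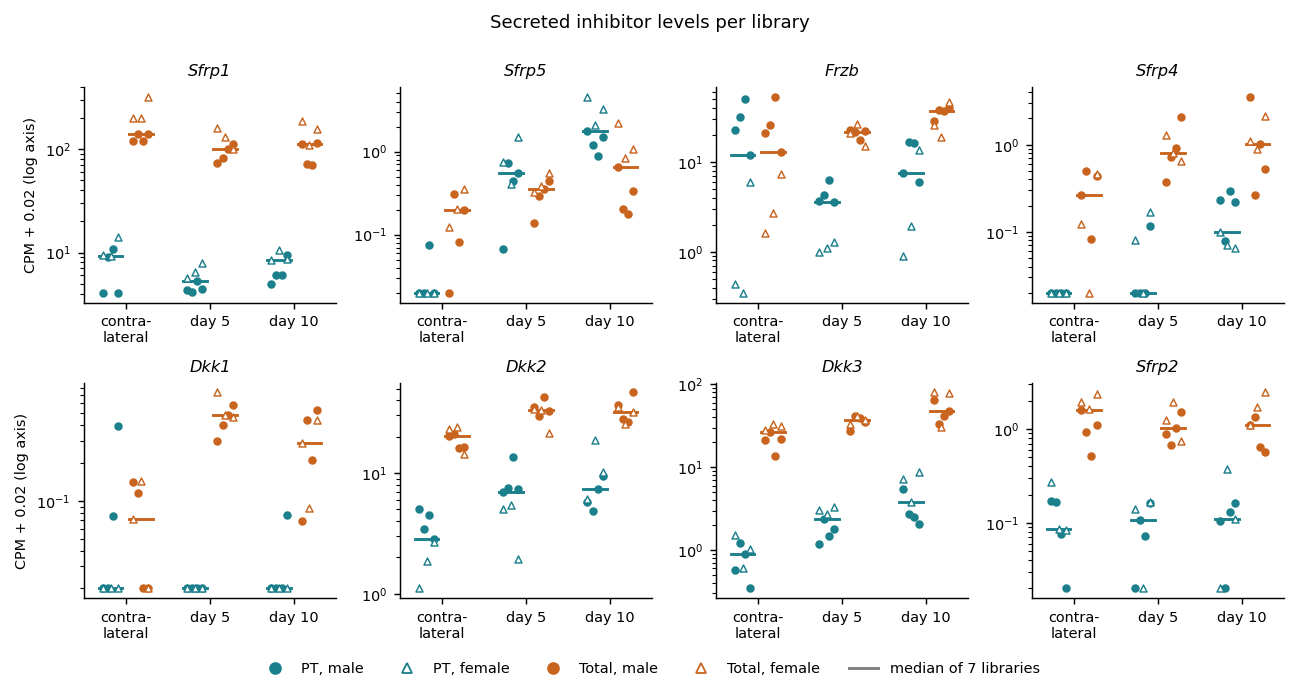
CPM + 0.02 on a log axis (y axis) of secreted inhibitors, per library, for PT and Total in contralateral, day 5 and day 10 kidneys (x axis); filled circles are male, open triangles female and the bar is the median of 7. Sfrp5 leaves 0 in PT after obstruction, Sfrp1 lies far lower in PT than in Total in each state, and Frzb in contralateral kidneys splits by sex.

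Among the cytoplasmic and nuclear components, the DNA-binding factors Tcf7 and Tcf7l1 rose in all 4 comparisons and Lef1 rose in Total. In PT 2 of 6 tested rose on each day, in Total 3 of 7 rose on each day, and none fell. Tcf7, which with β-catenin switches target genes on, was at 0.0540 to 0.591 CPM (median 0.150) in contralateral PT, 1.35 to 5.36 CPM (median 2.33) at day 5 and 1.6 to 11.1 CPM (median 2.57) at day 10. For Total the values were 0.497 to 1.22 CPM (median 0.620), 4.13 to 9.01 CPM (median 6.62) and 4.23 to 13.3 CPM (median 7.75). No obstructed library overlapped with a contralateral one in either fraction. Tcf7 rose by 4.04 ± 0.44 and 4.57 ± 0.44 in PT and by 3.21 ± 0.26 and 3.55 ± 0.26 in Total, with an adjusted p of 6.1e-11 in Total at day 10 by edgeR's quasi-likelihood test and Benjamini-Hochberg adjustment. Tcf7 is also a marker of T lymphocytes, and the 11 listed markers of T, B and other lymphocytes summed to 0.502 to 2.53 CPM in contralateral PT, 5.18 to 9.98 CPM at day 5 and 5.74 to 11.9 CPM at day 10. In Total they summed to 13.7 to 25.2, 67.4 to 101 and 65.3 to 117 CPM, and the B cell markers Cd79a and Ms4a1 were at 0 in contralateral PT. Their part in the change of Tcf7 was not tested.

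Tcf7l1, a family member known mostly as a repressor, was at 0.648 to 1.17 CPM (median 0.836) in contralateral PT, 2.63 to 5.03 CPM (median 3.96) at day 5 and 2.81 to 7.80 CPM (median 4.96) at day 10. The corresponding Total levels were 3.86 to 7.75 CPM (median 5.29), 13.3 to 20.3 CPM (median 17.1) and 14.4 to 24.7 CPM (median 21.1). Here too no obstructed library overlapped with a contralateral one. Tcf7l1 rose by 2.19 ± 0.21 and 2.55 ± 0.21 in PT and by 1.59 ± 0.16 and 1.93 ± 0.16 in Total. Lef1, the other lymphoid-rich member, was at 0.0610 to 0.807 CPM (median 0.362), 1.33 to 3.78 CPM (median 1.83) and 1.33 to 4.52 CPM (median 2.36) in Total, without overlap. It rose there by 2.23 ± 0.38 and 2.62 ± 0.38. In PT, where it was not tested, Lef1 had 3, 20 and 24 counts over the 7 libraries of the 3 states, and the ratios to contralateral were 5.95 (counting interval 1.76 to 31.2) and 6.08 (1.85 to 31.5).

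The strand setting of the counting is not given in the sources used here, and exons of 10 genes of the set, Wnt5a, Wnt7b, Wnt11, Fzd5, Fzd6, Sfrp2, Tcf7l1, Lef1, Ctnnb1 and Axin2, overlap a gene on the opposite strand in the GENCODE annotation, so reads of the pair may not be told apart.

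Ctnnb1, β-catenin itself, was at 217 to 297 CPM (median 259) in contralateral PT, 294 to 388 CPM (median 369) at day 5 and 269 to 455 CPM (median 384) at day 10. Its Total level was 204 to 257 CPM (median 226), 223 to 363 CPM (median 305) and 250 to 360 CPM (median 323). Its medians were higher after obstruction in both fractions, with overlap, and the changes of 0.43 ± 0.13 and 0.53 ± 0.13 in PT and 0.29 ± 0.11 and 0.47 ± 0.11 in Total were under 2-fold. Axin2, a feedback inhibitor whose transcription is a standard readout of β-catenin activity, was at 2.59 to 12.3 CPM (median 6.60) in contralateral PT, 1.49 to 18.6 CPM (median 3.05) at day 5 and 2.01 to 19.2 CPM (median 10.7) at day 10. The Total libraries held it at 4.04 to 13.6 CPM (median 5.37), 1.91 to 7.84 CPM (median 5.90) and 3.33 to 22.2 CPM (median 12.1). The states overlapped widely. Axin2 had -0.17 ± 0.62 and 0.36 ± 0.62 in PT and -0.46 ± 0.34 and 0.79 ± 0.33 in Total, none of them called. With library size as the only scaling, its day 5 values were 0.22 in PT and 0.01 in Total, and its Total day 10 value was 1.17 and called. Axin1, the constitutive scaffold of the destruction complex, and Tcf7l2, the main Tcf factor of many epithelia, had changes from -0.12 to 0.11 in the 4 comparisons.

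Promoter sequence was read to show the letters that Tcf factors are known to bind. RefSeq windows of build GRCm38.p6 were given for 32 of the 47 genes, as 41 windows of the 250 bases before the start. The letters CTTTGNN, in which each N is A or T and which are the core of the Tcf and Lef motif, were searched on both strands. They occurred in 6 of the 41 windows (14.6%) and in 14.8% of all 32851 windows of that length. The windows of Dkk1, Fzd7 and Wnt5b are shown as examples of genes called against contralateral kidneys whose window held the letters, and that of Axin2 is shown as the standard target of the pathway. The other 2 windows of Wnt5b held none. Lef1, also called, held them in 1 of its 4 windows, at -147, and is not shown. Each sequence runs 5′ to 3′ on the strand of the gene, with the matched letters or their reverse complement in capitals. Dkk1 lies on the minus strand at chr19:30549497-30549746 with matches at -117 and -98 from the start, Fzd7 on the plus strand at chr1:59481897-59482146 with a match at -130, Wnt5b on the minus strand at chr6:119449387-119449636 with a match at -71, and Axin2 on the plus strand at chr11:108920099-108920348 with none.
Axin2: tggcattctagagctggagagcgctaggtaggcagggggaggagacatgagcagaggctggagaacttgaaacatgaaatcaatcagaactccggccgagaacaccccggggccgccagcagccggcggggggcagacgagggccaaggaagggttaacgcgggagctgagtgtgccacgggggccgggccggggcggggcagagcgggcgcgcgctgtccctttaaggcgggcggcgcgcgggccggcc
Dkk1: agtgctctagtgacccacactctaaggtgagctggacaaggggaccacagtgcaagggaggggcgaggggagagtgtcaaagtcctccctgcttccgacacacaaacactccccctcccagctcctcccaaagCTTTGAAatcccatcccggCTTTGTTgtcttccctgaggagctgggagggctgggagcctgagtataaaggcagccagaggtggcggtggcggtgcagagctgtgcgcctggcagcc
Fzd7: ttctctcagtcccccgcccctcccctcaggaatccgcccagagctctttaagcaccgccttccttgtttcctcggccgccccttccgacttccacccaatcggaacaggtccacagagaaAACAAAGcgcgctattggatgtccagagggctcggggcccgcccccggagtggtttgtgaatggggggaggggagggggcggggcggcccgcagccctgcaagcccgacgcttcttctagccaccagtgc
Wnt5b: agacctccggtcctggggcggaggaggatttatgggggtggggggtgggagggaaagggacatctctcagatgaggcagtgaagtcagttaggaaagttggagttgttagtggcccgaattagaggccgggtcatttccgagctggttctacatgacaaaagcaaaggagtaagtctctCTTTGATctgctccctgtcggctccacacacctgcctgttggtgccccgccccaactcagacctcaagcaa
A match is a description of letters, not a bound site, and the window of Axin2 says only that these letters are not in it. Lef1, Tcf7l2 and Wnt11 each had a match in 1 of their windows. Tcf7 and Tcf7l1, which rose in all 4 comparisons, had none in theirs.

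Between day 5 and day 10 few genes of the set differed. In PT none of the 28 was called by edgeR's quasi-likelihood test, against 0.442% of all genes, with 5 at an unadjusted p under 0.05 and 1 called by DESeq2, which was Sfrp5 at 1.75. By edgeR, Sfrp5 had 1.73 ± 0.42 with a Benjamini-Hochberg adjusted p of 0.0727, Dkk3 had 0.99 ± 0.29 and Frzb had 1.83 ± 0.62. In Total, Wnt2 and Wnt4 were called of 36, against 0.393% of all genes. Wnt2 rose from day 5 to day 10 by 2.63 ± 0.56 and Wnt4 by 1.65 ± 0.37. The call of Wnt2 was lost on leaving out any of 7 of 21 Total libraries (log2 change 2.11 to 3.04) and that of Wnt4 on leaving out any of 12 (1.24 to 1.80). With the level of Lars2 as a covariate, chosen after seeing the data, neither was called (Wnt2 2.68, adjusted p = 0.0592, and Wnt4 1.13, adjusted p = 0.220, by edgeR and Benjamini-Hochberg adjustment), and Wnt9b was (1.88). Axin2 had 1.25 ± 0.34 in Total, with an adjusted p of 0.104 by edgeR and Benjamini-Hochberg adjustment.

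Between the fractions, called differences of the genes measured in both were lower in PT, with 1 exception. The 28 genes of the set that passed the filter on low counts in each fraction on its own are counted here. Another 8 (Dkk1, Lef1, Sfrp2, Sfrp4, Wnt2, Wnt2b, Wnt7a and Wnt16) passed in Total and not in PT, so they entered the joint fit through Total and are left out of the counts. Of the 28, 13 were lower in PT and none higher in contralateral kidneys, against 17.3% of all genes lower among those that passed in each fraction. At day 5 11 were lower and none higher, against 15.8% lower. At day 10 11 were lower and 1 higher, against 14.8% lower and 7.92% higher. The median difference of the 28 was -0.97, -0.77 and -0.93 in the 3 states, beside 0.03, 0.11 and 0.17 for all such genes. By role, 3 of 7 ligands were lower in PT in each state. Of 10 receptors, 4, 2 and 3 were lower, of 5 secreted inhibitors 4 in each state, and of 6 cytoplasmic or nuclear components 2, 2 and 1. Dkk2, Dkk3, Fzd2, Fzd4, Sfrp1, Tcf7l1, Wnt4 and Wnt7b were lower in PT in all 3 states. The fibroblast and pericyte markers had median differences of -3.88, -4.26 and -4.18 in the same comparisons.

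Among the inhibitors, Sfrp1 and Dkk3 lay far lower in PT. Sfrp1 was at 4.05 to 14.1 CPM in contralateral PT and 120 to 324 CPM in contralateral Total, with differences of -4.35 ± 0.22, -4.33 ± 0.22 and -3.93 ± 0.21 in contralateral, day 5 and day 10 kidneys. PT and Total libraries did not overlap for 8, 11 and 9 of the 28 genes in the 3 states, against 17.1%, 21.9% and 18.5% of all such genes. Dkk3 had -4.89 ± 0.29, -4.02 ± 0.26 and -3.57 ± 0.25. PT and Total libraries of Sfrp1 and Dkk3 did not overlap in any state. Dkk2 had differences of -2.84 ± 0.25, -2.41 ± 0.24 and -1.87 ± 0.23. Sfrp2 had differences of -3.71, -3.72 and -3.29. Sfrp4 in contralateral kidneys had no PT count and 28 Total counts, and was at least 1.34-fold lower in PT at a floor of 3 counts per library. Dkk1 at day 5 was at least 2.86-fold lower in PT on the same floor. Frzb had no called difference in contralateral kidneys (-0.31) and was lower in PT at day 5 (-3.23 ± 0.54) and day 10 (-2.04 ± 0.48). Sfrp5 was the gene of the set that was higher in PT than in Total, at day 10, by 1.66 ± 0.42. In contralateral kidneys Sfrp5 had 1 PT count and 18 Total counts, a ratio of 17.7-fold lower in PT (counting interval 2.80 to 739).

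Among the ligands, Wnt4 had differences of -3.14 ± 0.68, -3.14 ± 0.44 and -4.00 ± 0.42. Wnt7b had -2.82, -1.46 and -1.0, and the last was lost on leaving out any of 33 of the 42 libraries (log2 difference -1.31 to -0.78). Wnt5a was lower in PT in contralateral kidneys by -1.54 ± 0.21 on the log2 scale, and its values of -0.78 at day 5 and -0.82 at day 10 were under 2-fold. Wnt5b had 0.45, 0.41 and 0.32, with no call in any state. The contralateral call of Wnt7a rests on 1 PT count against 10 in Total, a ratio of 9.85 (counting interval 1.4 to 428), and it was lost on leaving out any of 9 of the 42 libraries; with the replicate block the adjusted p was 0.0754 by edgeR's quasi-likelihood test and Benjamini-Hochberg adjustment. The calls of 3 more scarce ligands depended on single libraries. Wnt2 at day 5 was lost on leaving out any of 17 of the 42 libraries, Wnt2b on leaving out any of 6 in contralateral kidneys and 6 at day 5, and Wnt16 on leaving out 1 at day 5 and any of 3 at day 10. Wnt9b was lower in PT at day 5 (-1.93) and day 10 (-2.0). Wnt6 at day 10 had no PT count and 27 Total counts, and was at least 1.55-fold lower in PT.

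Among the receptors, Fzd2 and Fzd4 were lower in PT in each state. Fzd2 had -2.80 ± 0.35, -3.87 ± 0.32 and -3.47 ± 0.30, with no overlap of PT and Total in any state. Fzd4, the receptor of norrin and a gene of endothelium, was at 3.62 to 10.2 CPM (median 5.69) in contralateral PT and 12.1 to 31.7 CPM (median 20.4) in contralateral Total. The fractions of Fzd4 did not overlap in any state, with differences of -1.62, -1.42 and -1.34. Endothelial markers summed to 9.05 to 23.9 CPM in contralateral PT and 207 to 308 CPM in contralateral Total, and their part in this difference was not tested. Fzd7 was lower in PT in contralateral kidneys (-1.96 ± 0.28) and was not called at day 5 (-0.88) or day 10 (-0.29). Fzd6 was lower in PT in contralateral kidneys (-1.25), at 2.11 to 6.57 CPM against 7.59 to 10.4 CPM in Total with no overlap. Lrp5 was lower in PT at day 10 (-1.03 ± 0.28), a call that was lost on leaving out any of 17 of the 42 libraries. Tcf7l1 had -2.66 ± 0.19, -2.10 ± 0.17 and -2.02 ± 0.17. Tcf7 had -2.03, -1.23 and -0.97, and the last was under 2-fold. The day 10 difference of Tcf7 was -1.05 and called with the replicate block, and its day 5 difference was -0.98 and not called without the female day 5 Total library 1. Lef1 in contralateral kidneys had 3 PT counts against 50 in Total (16.4-fold lower, counting interval 5.31 to 82.3), and it had -3.69 and -4.04 at day 5 and day 10. Ctnnb1, Axin1, Axin2, Tcf7l2 and Fzd5 were not called between the fractions in any state.

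**Figure D5:**
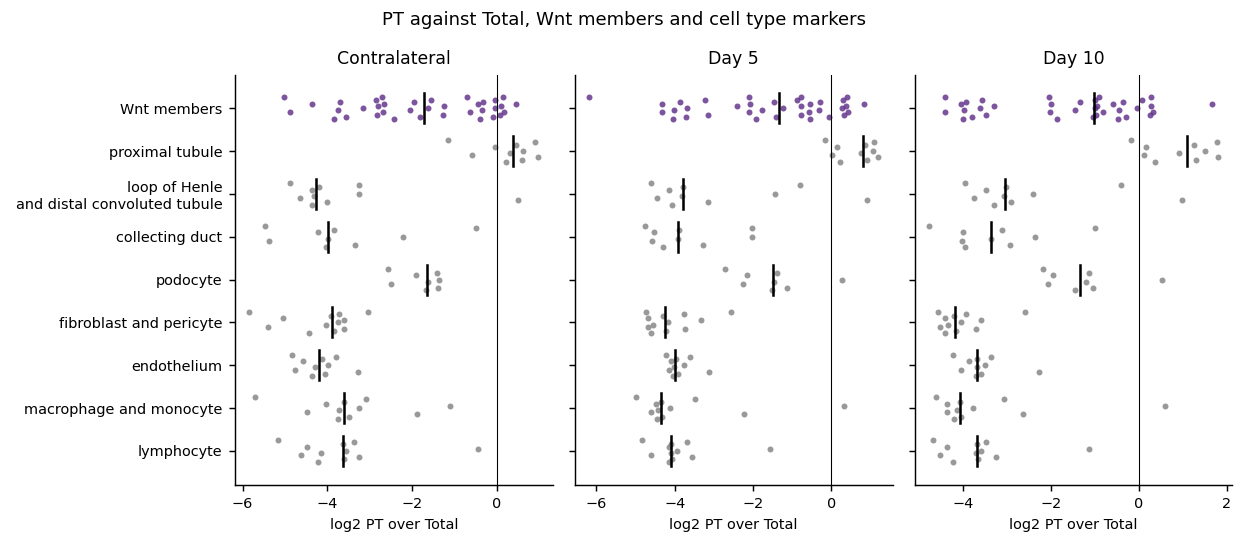
Fitted log2 difference of PT over Total (x axis) for the genes of the set and for 8 lists of cell type markers (y axis), in contralateral, day 5 and day 10 kidneys; each point is a gene and the black bar is the median. The points of the set include the 8 genes that passed the filter through Total alone, and with them its bar lies at -1.72, -1.33 and -1.02, while the median of the other 28 is -0.97, -0.77 and -0.93; fitted values of genes with no count on a side, such as Dkk1 at day 5, are no bounds.

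Some changes on obstruction differed between the fractions. The difference of the changes (PT minus Total) was called for 2 of 36 genes at day 5, against 4.27% of all genes, and for 4 at day 10, against 5.76%. At day 5 Sfrp5 had 4.67 ± 1.07 (adjusted p = 0.00452) and Frzb -2.92 ± 0.72 (adjusted p = 0.01) in the quasi-likelihood test of edgeR with Benjamini-Hochberg adjustment. At day 10 Sfrp5 had 5.49 ± 1.04, and its PT change on each day stood on 1 contralateral count. Fzd7 had 1.67 ± 0.38, Dkk3 1.32 ± 0.36 and Fzd1 -1.09 ± 0.21 at day 10. The changes of Fzd7 and Dkk3 were thus higher in PT than in Total, and that of Fzd1 was lower. The value of Frzb was -1.61 and not called without the female contralateral PT library 3, and that of Dkk3 was 1.08 with an adjusted p of 0.0768 by edgeR and Benjamini-Hochberg adjustment without the male day 10 Total library 3. The value of Fzd1 fell to under 2-fold on leaving out any of 4 of the 42 libraries: male day 10 PT 1 (-0.98) or 3 (-0.99), female day 10 PT 2 (-0.97) and female day 10 Total 3 (-0.90). With the replicate block, Fzd7 at day 5 (1.08) and Frzb at day 10 (-1.79) were called as well.

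Between females and males in contralateral kidneys, 2 genes of 28 were called in PT, against 4.13% of all genes, and 2 of 36 in Total, against 2.76%. Frzb was lower in females by edgeR's quasi-likelihood test with Benjamini-Hochberg adjustment, at -3.69 ± 0.94 in PT (adjusted p = 0.0262) and -2.96 ± 0.49 in Total (adjusted p = 0.000984). Wnt5b in contralateral PT was at 4.15, 3.76, 2.89 and 2.92 CPM in males and 4.26, 8.77 and 14.4 CPM in females. All females were above all males, 1 of them only just, and the female excess was 1.4 ± 0.35. Wnt7b in contralateral Total was at 0.183, 0.429, 0.249 and 0.478 CPM in males and 0.878, 1.80 and 0.774 CPM in females. Here too the sexes did not overlap, and the female excess was 1.77 ± 0.47. Without the female contralateral PT library 3, Wnt5b had 0.92, and the call was also lost without library 2 of that group (1.42) or male contralateral PT library 3 (1.33) or 4 (1.34). The call of Wnt7b was lost without male contralateral Total library 1 (1.58) or 3 (1.67) or female contralateral Total library 2 (1.28), and that of Frzb in PT without male contralateral PT library 3 (-3.28) or female contralateral PT library 1 (-3.23) or 2 (-3.18).

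The change on obstruction differed between the sexes for Frzb in Total at day 5, where the female change was higher by 2.97 ± 0.63 (adjusted p = 0.0349, edgeR's quasi-likelihood test with Benjamini-Hochberg adjustment). This was 1 of 36 genes, against 0.59% of all genes. Leaving out any of 8 of 21 Total libraries ended that call (log2 difference 2.46 to 3.75). At day 10 the Frzb value was 2.72 ± 0.63 with an adjusted p of 0.110 by the same edgeR test. Of the Total genes at day 10 none was called by edgeR's quasi-likelihood test, against 0.185% of all genes, and 1 by DESeq2. In PT none of 28 was called by that test on either day, against 0.502% and 0.208% of all genes.

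Levels of different genes were compared per length, as RPKM. In contralateral PT, Ctnnb1 was the highest of the set at 37.1 ± 5.40 RPKM (SD, n = 7), and its range did not meet that of the next gene, Fzd1, at 5.36 ± 1.27 RPKM. Fzd1, Axin1 (4.73 RPKM), Lrp6 (4.64 RPKM), Frzb (3.95 RPKM) and Tcf7l2 (3.91 RPKM) followed, and the ranges of neighbours in that order overlapped. In contralateral Total, Ctnnb1 at 41.1 ± 3.44 RPKM and Sfrp1 at 37.6 ± 15.1 RPKM overlapped, and both lay above Lrp6 (7.24 RPKM), Dkk3 (6.97 RPKM) and Fzd1 (6.15 RPKM). At day 10 the order in Total was Ctnnb1 (74.5 RPKM), Sfrp1 (31.9 RPKM), Dkk3 (19.0 RPKM), Frzb (12.4 RPKM), Fzd1 (11.7 RPKM) and Dkk2 (10.6 RPKM). Below Ctnnb1, whose range met no other, the ranges of neighbours in that order overlapped, as did those of Dkk2 (7.57 to 15.5 RPKM) and the next gene, Lrp6 (4.84 to 8.58 RPKM). RPKM carry no composition factor, so the rise of Ctnnb1 between these states is larger on this scale than its TMM-scaled change.

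Other genes of the pathway were counted from lists of related function. Among all genes tested, 18.2% and 19.7% rose and 12.4% and 12% fell in PT at day 5 and day 10. In Total 19.2% and 20.9% rose and 13.3% and 13.8% fell. The limit on scarce genes holds here too, as Tpbg, Ptk7, Nkd2 and Sulf1 had 6, 13, 23 and 24 contralateral counts in PT. Of 10 genes for Wnt processing and secretion, all tested, 4 rose and 1 fell in PT at day 5, 5 rose and 1 fell at day 10, and in Total 4 rose and 2 fell on each day. Gpc3, a glypican on the cell surface, rose by 4.40 ± 0.60 and 4.38 ± 0.60 in PT and by 2.84 ± 0.41 and 2.54 ± 0.41 in Total. Sulf1, a sulfatase that trims the heparan sulfate on which ligands sit, rose by 1.57 ± 0.43 in PT at day 5 and by 2.58 ± 0.37 and 3.43 ± 0.38 in Total. Notum, the enzyme that removes the lipid from Wnt proteins, fell with -2.25 ± 0.42 and -3.00 ± 0.44 in PT and -2.82 ± 0.39 and -2.35 ± 0.38 in Total. None of the R-spondin axis was called by edgeR's quasi-likelihood test in any of the 4 comparisons, with 3 of 9 genes tested in PT and 5 in Total. The ligand gene Rspo3 was not tested in PT, where it had 0, 45 and 19 counts over the 3 states. In Total Rspo3 had 51, 114 and 95 counts. The E3 ligases of the axis, Znrf3 and Rnf43, which remove Frizzled from the surface, were among those tested. Znrf3 had 1.10 ± 0.54 and 0.70 ± 0.54 in PT and 0.54 and 0.28 in Total, and Rnf43 had -0.19 and 0.41 in PT and -0.03 and -0.33 in Total.

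Of 11 other extracellular inhibitors, 5 were tested in PT and 6 in Total. Tpbg, a membrane inhibitor of Lrp6, rose by 6.12 ± 0.67 and 5.99 ± 0.67 in PT and by 3.84 ± 0.34 and 4.31 ± 0.34 in Total. Igfbp4, an insulin-like growth factor binder that also blocks co-receptors, had -1.09, -1.36, -1.41 and -1.32 in PT day 5, PT day 10, Total day 5 and Total day 10, and fell in all 4. Apcdd1, a membrane inhibitor of Wnt signalling, fell in PT at day 10 (-2.31 ± 0.79) and rose in Total (1.15 ± 0.46).

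Of 25 further cytoplasmic and nuclear components, 3 of 23 rose in PT at day 5, 3 rose and 1 fell at day 10, and 3 and 4 of 25 rose in Total. Csnk1e, a casein kinase of the pathway, rose by 2.59 ± 0.25 and 2.91 ± 0.25 in PT and by 1.54 ± 0.12 and 1.71 ± 0.12 in Total. Pygo1, a nuclear partner of β-catenin, had 2, 15 and 61 counts in PT over the 3 states and rose in Total by 1.31 ± 0.31 and 1.88 ± 0.31. Among 22 alternative receptors and planar polarity genes, 5 and 6 of 18 rose in PT and 7 and 6 of 21 in Total, with none lower. Prickle2, a planar polarity component, rose by 3.49 ± 0.46 and 3.66 ± 0.46 in PT and by 1.4 ± 0.18 and 1.37 ± 0.18 in Total. Ptk7, a pseudokinase co-receptor, rose by 2.00 ± 0.72 and 2.73 ± 0.69 in PT and by 2.78 ± 0.26 and 2.96 ± 0.26 in Total.

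Of 20 feedback and target genes of the canonical branch, 8 of 13 tested rose and 1 fell in PT at day 5, and 9 rose and 1 fell at day 10. In Total 12 of 19 rose and 2 fell at day 5, and 15 rose and 2 fell at day 10. The medians of the list were 1.91 and 2.71 in PT and 2.02 and 2.83 in Total, beside 0.04 to 0.06 for all genes tested. The genes of the list have other regulators too. In Total, Mmp7, Tnfrsf19 and Ascl2 passed the filter with 0, 6 and 8 contralateral counts. Between the fractions 13, 14 and 13 of 19 genes were lower in PT and 0, 1 and 2 higher in the 3 states. Some of these passed the filter in Total alone. The fibroblast and pericyte markers had median changes of 2.58 and 3.12 in PT and 2.67 and 3.29 in Total. Their part in the list was not tested. Cd44, a hyaluronan receptor, rose by 7.28 ± 0.36 and 7.25 ± 0.36 in PT and by 5.32 ± 0.24 and 5.19 ± 0.24 in Total. Nkd2, a feedback inhibitor that binds Dishevelled, rose by 1.89 ± 0.40 and 3.62 ± 0.39 in PT and by 4.16 ± 0.25 and 5.54 ± 0.25 in Total. Mmp7, a secreted protease, had 0 counts in the contralateral Total libraries and 175 and 412 counts at day 5 and day 10. Ccnd1, the cyclin D1 gene and a textbook target, fell with -2.57 ± 0.36 and -1.63 ± 0.35 in PT and -2.39 ± 0.25 and -1.79 ± 0.24 in Total. Sp5, a transcription factor induced by the pathway, fell in Total with -1.41 ± 0.23 and -1.4 ± 0.23. Myc, also on the list, had 471, 7484 and 7465 counts in PT over contralateral, day 5 and day 10 kidneys. In Total it had 348, 4409 and 3070 counts. Axin2, Ccnd1 and Sp5 thus did not rise in any of the 4 comparisons in which Nkd2 and Cd44 rose, while most tested genes of the list rose.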

How the data were processed

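RNA of 42 mouse libraries (24 male, 18 female) was measured by TRAP-seq. Per the submitters' processing notes, reads were processed with STAR 2.0.4b and with featureCounts 1.4.5 of Subread. The genome build, annotation, strand setting and other parameters are not given in the sources used here. The authors deposited raw counts per gene symbol and a table of RPKM values for the same libraries, and the deposited RPKM values equal the counts per total and per 1 gene length, within 0.000429 of relative deviation over 28069 genes. They carry no composition factor. All columns were mapped to samples by title.

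Counts were tested with edgeR 4.0.16 (with limma 3.58.1 and R 4.3.3): filterByExpr, TMM factors, glmQLFit (robust) and glmQLFTest, 1 mean per group of sex and state, and Benjamini-Hochberg adjustment over all genes tested, which were 14932 in PT, 16782 in Total and 17110 in both. The SE is the change over the square root of the F statistic. A call needed an adjusted p under 0.05 and at least 2-fold. DESeq2 1.42.0 was an alternative. On simulated counts with 200 changed genes, 32% of 2-fold and 91% of 4-fold changes were recovered for PT at day 5 and 34% and 90% for Total. In the data 30.6% of genes were called in PT at day 5, a far larger share than was changed in the simulation. A call also needs an estimated change of at least 2-fold, which a true 2-fold change often misses. These rates are therefore no measure of the sensitivity of the reported tests. For genes with 1 to 3 counts on a side the ratio of counts with its exact interval is given. With no count, the bound uses a floor of 3 counts per library.

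All genes of the set were followed. Genes called against contralateral kidneys or between fractions and reaching a mean of 1 CPM in a group of fraction and state count as described in full. They were 25 of 28 called, and Dkk1, Wnt16 and Wnt2b were the others. Not all of the 25 have their levels given in each fraction and state. For Lrp5 and Sfrp2 only log2 changes and differences are given. Related genes are named as up to 3 of the largest called changes each way per list. Znrf3, Rnf43, Rspo3, Mmp7, Tnfrsf19, Ascl2 and Myc were added after their values were seen. The genes of the set and the lists were chosen with earlier results of these data known. Replicate numbers were tested for pairing by the correlation of deviations from group means. All 7 pairs exceeded 0.1 for contralateral and day 10 Total (0.15 to 0.36), PT and Total of contralateral kidneys (0.29 to 0.44) and PT and Total at day 10 (0.19 to 0.68), and not for the other 6 pairs of groups. The level of 1 marker gene is not reported here.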

Additional observations from a re-analysis of the deposited data

Results flagged for a closer look

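Of 148 groups of 4 male libraries checked for the genes described in full, 14 (9.46%) held 1 library far from the other 3. In 8 of them a single library had counts, which sets it apart by construction, and of the 140 groups with counts in more libraries 6 (4.29%) were set apart, where chance gives about 1 in 20. In male PT, Dkk2 at day 5 was at 13.6 CPM in 1 library and 6.94 to 7.51 CPM in the others, Wnt4 at day 5 at 0.435 CPM against 0.141 to 0.176 CPM, and Wnt9b at day 5 at 0.328 CPM against 0.0966 to 0.132 CPM. In male contralateral PT, Fzd7 was at 3.32 CPM in 1 library against 1.4 to 1.46 CPM and Wnt9a at 0.943 CPM against 0.270 to 0.350 CPM. In male Total at day 10, Wnt7b was at 4.49 CPM in 1 library against 2.32 to 2.45 CPM. The other 8 were groups in which 1 library had counts and the others had none: Lef1 and Wnt2 at 0.0540 CPM, Sfrp5 at 0.0555 CPM and Wnt10a at 0.04998 CPM in male contralateral PT, Wnt10a at 0.0597 CPM and Wnt7a at 0.190 CPM in male contralateral Total, and Sfrp4 and Wnt7a at 0.0966 CPM in male day 5 PT.

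The change on obstruction differed between PT and Total by edgeR's quasi-likelihood test for Sfrp5 (4.67 at day 5 and 5.49 at day 10, log2, PT minus Total), Frzb (-2.92 at day 5), Fzd7 (1.67 at day 10), Dkk3 (1.32 at day 10) and Fzd1 (-1.09 at day 10). It differed between the sexes in Total for Frzb at day 5 (2.97, female minus male).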

How the results depend on the processing

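Over 109 fits none of the 127 called values changed sign, while 172 of 437 values that were not called did so in at least 1 fit. With a filter of at least 5 CPM in 3 libraries, fewer genes of the set were tested and calls went to 6 in PT at day 5 and 6 at day 10, 7 in Total at day 5 and 8 at day 10, 1 in Total between the days, 12, 10 and 11 for PT against Total in contralateral, day 5 and day 10 kidneys, 1 for the difference of fractions at day 5 and 1 for sex in contralateral PT. With no minimum fold, 25 were called in Total at day 10. DESeq2 called 1 in PT between the days and 1 for the difference of sexes in Total at day 10, and gave no adjusted p for 14 values. With no filter on low counts, 1 was called in Total between the days, 1 for sex in contralateral PT and 0 for the difference of sexes in Total at day 5. With library size as the only scaling, 1 was called in Total between the days. Chosen after seeing the data, the Lars2 level as a covariate gave 1 call between the days in PT (Sfrp5) and 1 in Total (Wnt9b, with Wnt2 and Wnt4 no longer called). The 3 Total libraries of lowest Lars2 (1715, 1879 and 1988 CPM, with up to 43613 CPM over all libraries) are male day 5 libraries 1 and 2 and male day 10 library 3. Without them, also chosen after seeing the data, 0 were called in Total between the days and 0 for the difference of sexes at day 5. The cause of these moves was not tested. At this depth 11 of the 47 genes had too few counts to be tested in either fraction.

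Leaving out 1 library at a time gave 12 to 14 calls in PT at day 5, 12 to 15 at day 10 and 0 between the days. In Total it gave 11 to 13, 14 to 17 and 0 to 3. PT against Total had 18 to 20, 16 to 19 and 18 to 24, and the difference of fractions had 1 to 3 at day 5 and 3 to 7 at day 10. Sex in contralateral kidneys had 0 to 2 in PT and 1 to 3 in Total. The difference of sexes had 0 to 1 in Total on each day and 0 in PT. With the replicate block, calls were 13 in PT on each day, 13 and 16 in Total, 19, 19 and 21 between fractions and 3 and 5 for the difference of fractions. The block moved 4 calls of single genes, of Wnt7a, Tcf7, Fzd7 and Frzb as given above, and no other call.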
